A study of Sus scrofa with 16 samples.

Results

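The 6 pig chromosomes 13 to 18 are acrocentric, that is, each has 1 visible arm with the centromere close to one end. All peaks of highly methylated DNA that the 4 deposited lists place on these chromosomes were taken, which gave 301958 of the 1159046 peaks in the 4 lists (766922 lay on chromosomes 1 to 12). Peaks were called from methylated DNA immunoprecipitation sequencing (MeDIP-seq) of heart tissue from 16 castrated male pigs of 6 months of age, with 4 Tibetan highland (TH), 4 Tibetan lowland (TL), 4 Yorkshire highland (YH) and 4 Yorkshire lowland (YL) pigs. YH and TL came from herds that were recent arrivals in Linzhi (highland) and Beijing (lowland), so that breed, herd and place of raising are joined in each group. Pigs of the same elevation were fed in the same way, and feeding at the 2 elevations cannot be told apart from elevation itself.

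In MeDIP-seq, an antibody against 5-methylcytosine pulls down methylated fragments of sonicated DNA, and regions with many fragments are called as peaks. A peak therefore marks a stretch with many methylated cytosines, and depends on how many CpG dinucleotides the stretch holds as well as on the share of them that is methylated. In heart tissue, which holds several cell types, a site methylated in part of the cells and a site methylated weakly in all of them cannot be told apart. Acrocentric chromosomes offer a comparison that chromosomes with 2 arms do not: one end of the assembled sequence (low coordinates) lies next to the centromere, where DNA is rich in repeats and gene-poor, and the other end (high coordinates) next to a telomere, where vertebrate chromosomes are often rich in genes, GC and CpG. The lists hold no centromere positions, and the ends were assigned from the usual numbering of these chromosomes.

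Each group had 1 list with the position, length, number of tags (sequenced fragments assigned to the peak by the peak caller) and fold enrichment of each peak. No more than 4 peaks of a list lay over any base, which is the number of animals in a group, and each list was therefore taken to hold the peaks of its 4 animals side by side, unnamed. The rows of the YH list ran through the chromosomes 4 times, and within each of these 4 blocks no peak overlapped another. The 4 YH blocks, of 63138 to 76743 peaks each, were taken as 4 animals and give the only spread between animals available for the peak measures. The block order names no animal. For TH, TL and YL, intervals cover counting error only. The mean numbers of uniquely mapped reads per animal that the study tabulates have the same order as the numbers of peaks (YL, YH, TH, TL from high to low), and the part of read depth in differences between lists was not tested.

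Summed together, chromosomes 13 to 18 carried fewer peaks for their length than chromosomes 1 to 12 in each list, with shares of all autosomal peaks that lay close together in the 4 groups. There were 73284 peaks in TH, 67640 in TL, 74412 in YH and 86622 in YL. These were 28.3% of the autosomal peaks in TH (95% Wilson interval 28.1 to 28.5%), 28.1% in TL (27.9 to 28.3%), 28.2% in YH (28.1 to 28.4%) and 28.3% in YL (28.2 to 28.5%). The 4 YH blocks gave 28.2% ± 0.273 (SD, n = 4; range 27.9 to 28.5%).

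Their 747.9 Mb held 98.0 peaks per Mb in TH, 90.4 in TL, 99.5 in YH and 115.8 in YL. On chromosomes 1 to 12 (1702 Mb) the same lists had 109.1, 101.8, 111.1 and 128.7 peaks per Mb. Single chromosomes of both kinds covered nearly the same range, with 80.7 to 135.5 peaks per Mb on chromosomes 13 to 18 and 84.3 to 141.5 on chromosomes 1 to 12 in TH, 76.5 to 125.1 and 80.7 to 126.3 in TL, 84.3 to 138.3 and 87.1 to 142.2 in YH, and 98.9 to 158.0 and 101.4 to 161.3 in YL. Within the YH blocks, the density was 24.9 ± 2.18 peaks per Mb on chromosomes 13 to 18 and 27.8 ± 2.67 on chromosomes 1 to 12 (SD, n = 4), and it was lower on chromosomes 13 to 18 in 4 of 4 blocks by 2.91 ± 0.572 peaks per Mb. A two-sided exact sign-flip permutation test over the 4 blocks gave p = 0.125, the smallest value that 4 pairs allow. Peaks covered 6.32% of the sequence in TH, 5.52% in TL, 6.17% in YH and 7.24% in YL, against 7.61, 6.62, 7.39 and 8.64% on chromosomes 1 to 12.

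Along the chromosomes, peaks were concentrated at the telomere end. Each chromosome was divided into 10 segments of equal length, numbered from the centromere end (chromosome length being the largest peak end in any list), and peaks were placed by their midpoints. In the last segment, the density over the 6 chromosomes was 152.7 peaks per Mb in TH, 136.8 in TL, 152.4 in YH and 171.2 in YL. In the first segment, next to the centromere, it was 84.4, 76.2, 85.7 and 99.96 peaks per Mb, which was below the density of the 8 segments between them (92.8, 86.4, 94.6 and 110.9). The ratio of last to first segment was 1.81 in TH (95% interval 1.75 to 1.87), 1.80 in TL (1.74 to 1.86), 1.78 in YH (1.72 to 1.83) and 1.71 in YL (1.66 to 1.76). Over the YH blocks the ratio was 1.88, 1.65, 1.75 and 1.82, with a mean of 1.78 ± 0.098 (SD, n = 4). A list joins 4 animals and varies less than a single block, and whether the lists differ in this ratio or in the share of peaks was not tested.

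Summed over the chromosomes with 2 arms, the ends had nearly the same density. There the first segment had 147.8, 136.3, 148.1 and 168.4 peaks per Mb in TH, TL, YH and YL, the last segment had 143.2, 131.6, 143.7 and 162.9, and the ratio was 0.968, 0.966, 0.97 and 0.968. Single chromosomes with 2 arms went both ways, with ratios from 0.839 to 1.14 in TH, 0.801 to 1.225 in TL, 0.759 to 1.29 in YH and 0.782 to 1.225 in YL. In each list, 5 of the 6 chromosomes 13 to 18 had a ratio above the highest of these, and chromosome 18 lay within their range. In each of the 4 YH blocks the ratio of chromosomes 13 to 18 exceeded that of chromosomes 1 to 12, by 0.808 ± 0.11 (SD, n = 4; exact sign-flip p = 0.125, again the smallest possible). The last segment of chromosomes 13 to 18 was also slightly denser than that of chromosomes 1 to 12 (by 2.18 ± 0.623 peaks per Mb, in 4 of 4 blocks), and the first segment was far sparser (21.4 ± 1.68 against 37.0 ± 3.67 peaks per Mb per block).

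**Figure D1:**
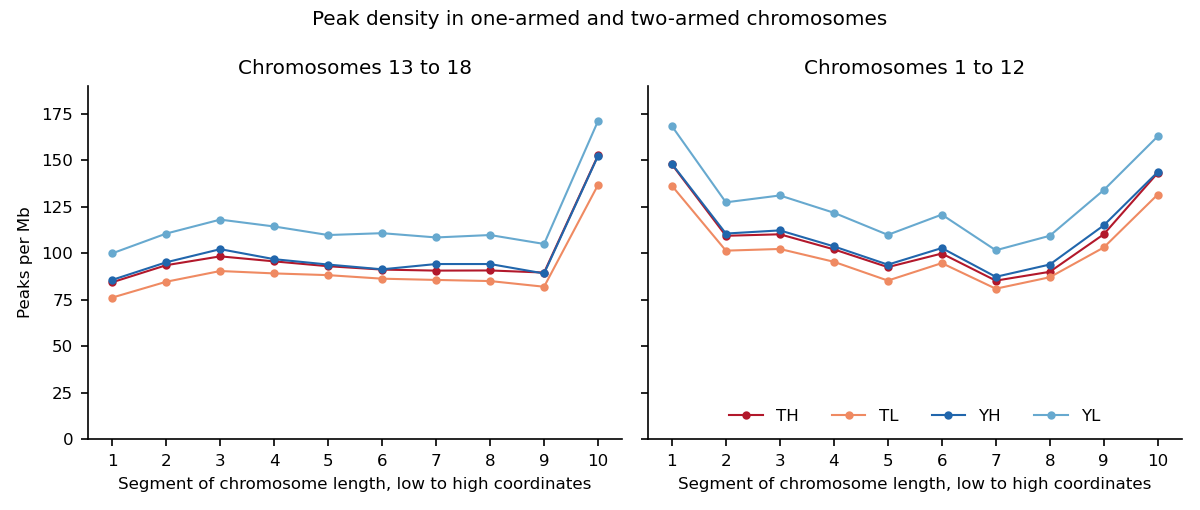
Peaks per Mb (vertical axis) in 10 equal segments of chromosome length from low to high coordinates (horizontal axis), summed over chromosomes 13 to 18 (left) and 1 to 12 (right), with 1 line per list. On chromosomes 13 to 18 the density rises in the last segment (136.8 to 171.2 peaks per Mb) and is lowest in the first (76.2 to 99.96), whereas both ends are high on chromosomes 1 to 12.

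The last segment was the densest on 6 of 6 chromosomes in each of the 4 lists, and had more peaks than the first on 6 of 6, against 6, 4, 5 and 6 of the 12 chromosomes with 2 arms in TH, TL, YH and YL. The size of the contrast, however, ranged widely. On chromosomes 15 and 17 the last segment held over 3 times the peaks of the first: the ratio was 3.37, 3.22, 3.57 and 3.32 in TH, TL, YH and YL for chromosome 15, and 3.46, 3.33, 3.30 and 3.31 for chromosome 17. Chromosome 16 had ratios of 2.21, 2.29, 2.15 and 2.09. Chromosome 13 had 1.59, 1.55, 1.56 and 1.52, and chromosome 14 had 1.39, 1.33, 1.32 and 1.25.

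Chromosome 18, the shortest of the 6, stood apart with ratios of 1.10 in TH, 1.11 in TL, 1.04 in YH and 1.03 in YL. Over the YH blocks its ratio was 1.04 ± 0.0967 (SD, n = 4), with 0.976, 1.07, 0.949 and 1.16, so that its ends did not differ beyond the spread between blocks. The other 5 chromosomes had more peaks in the last than in the first segment in 4 of 4 YH blocks. The blocks were far apart on chromosome 15 (3.63 ± 0.715; 4.68, 3.07, 3.39 and 3.38) and chromosome 17 (3.37 ± 0.739; 4.29, 2.55, 3.08 and 3.55), whose first segments held as few as 140 and 76 peaks in a block. These 2 chromosomes did not differ from each other beyond that spread.

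**Figure D2:**
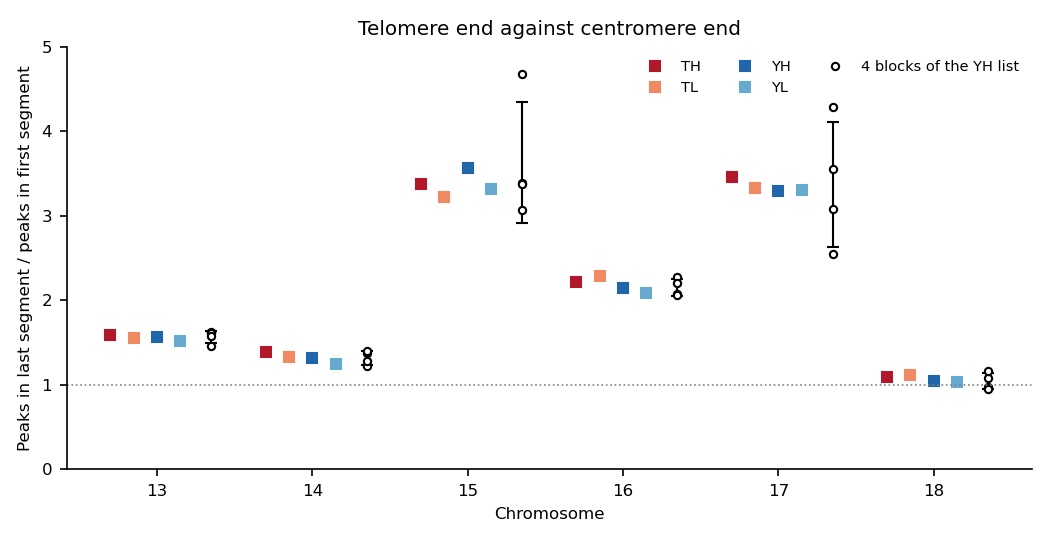
Peaks in the last segment divided by peaks in the first segment (vertical axis) for each of chromosomes 13 to 18 (horizontal axis), with squares for the 4 lists and open circles for the 4 blocks of rows of the YH list, whose bars are mean ± SD. The dotted line marks a ratio of 1. Chromosomes 15 and 17 are highest (3.22 to 3.57 and 3.30 to 3.46 over the lists), and only the circles of chromosome 18 fall on both sides of the line (0.949 to 1.16).

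The density of the whole chromosome followed the same order in the 4 lists. Chromosome 15 was the sparsest (80.7, 76.5, 84.3 and 98.9 peaks per Mb in TH, TL, YH and YL), next to chromosome 13 (84.6, 79.5, 87.1 and 101.8), the longest of the 6. Chromosomes 16 (96.8, 90.5, 98.5 and 113.9) and 14 (111.5, 99.3, 109.4 and 127.6) were intermediate. Chromosome 17 (118.1, 106.2, 118.2 and 137.4) and chromosome 18 (135.5, 125.1, 138.3 and 158.0) were the densest. Each step of this order held in 4 of 4 YH blocks.

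The sparsest segment was the same in the 4 lists on each chromosome, and lay next to the centromere on only 2 of them. On chromosome 15 it was the first segment, with 42.5 peaks per Mb in TH, 42.7 in TL, 42.3 in YH and 49.1 in YL, against 143.3, 137.6, 150.9 and 163.2 in the last. On chromosome 17 it was also the first, with 48.9, 47.2, 51.1 and 57.7, against 169.5, 157.1, 168.5 and 190.7 in the last. Chromosome 16 had its minimum in segment 2, where the density fell to 31.7 in TH, 28.3 in TL, 23.3 in YH and 29.0 in YL, the lowest of all 60 segments; its last segment had 176.5, 153.7, 168.8 and 195.7.

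The other 3 chromosomes had their minimum further along the arm. On chromosome 13 it was segment 9, with 45.6, 45.1, 42.9 and 51.6 peaks per Mb in TH, TL, YH and YL, directly beside the densest (132.0, 119.6, 136.6 and 154.7). On chromosome 14 it was segment 7 (66.5, 60.3, 60.1 and 73.0, against 157.1, 131.1, 149.9 and 169.5 in the last). On chromosome 18 it was segment 6 (79.7, 82.2, 80.4 and 92.0), while the first (171.1, 147.5, 170.6 and 192.6) and the last (187.6, 164.0, 177.4 and 197.9) were both high. On chromosomes 13, 14 and 18 the first segment had more peaks per Mb than the segments between the ends, and on chromosomes 15, 16 and 17 it had fewer.

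**Figure D3:**
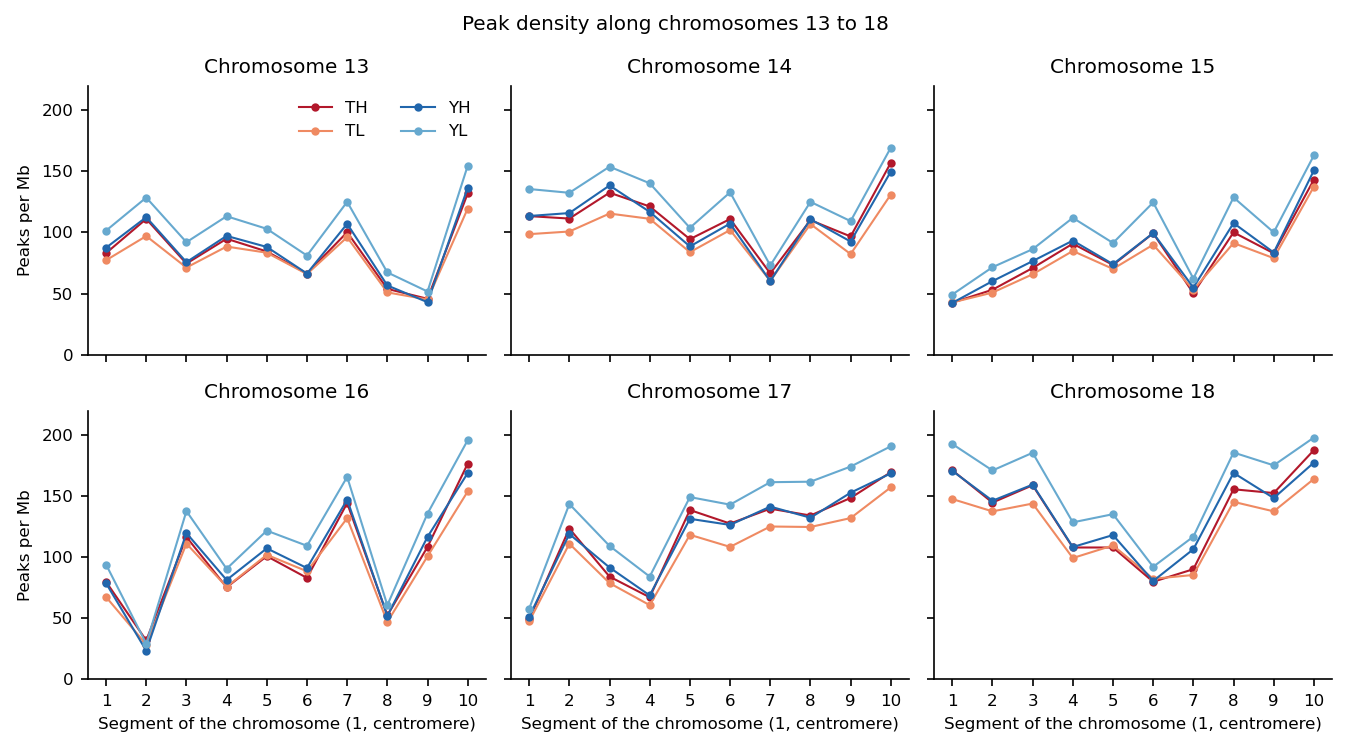
Peaks per Mb (vertical axis) in each segment of chromosomes 13 to 18 (horizontal axis, segment 1 next to the centromere), 1 line per list. The 4 lines keep nearly the same shape on each chromosome, the last segment is the highest in every panel, and chromosome 18 has a first segment of 147.5 to 192.6 peaks per Mb that is close to its last.

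At a finer scale, the extremes often lay in other segments. The 100 kb bin with the most peaks over the 4 lists lay in the last segment on 3 chromosomes: chr13:217100001-217200000 (39 peaks in TH, 31 in TL, 41 in YH and 41 in YL), chr15:154500001-154600000 (40, 43, 44 and 45) and chr16:85800001-85900000 (35, 33, 41 and 48). The median bin held 30, 28 and 36 peaks over the 4 lists together on these chromosomes. On chromosome 14 the densest bin was in segment 6 (chr14:84300001-84400000; 30, 33, 38 and 42 peaks) and on chromosome 17 in segment 2 (chr17:13800001-13900000; 25, 26, 36 and 46). On chromosome 18 it lay near the centromere end, at chr18:300001-400000 (39, 40, 43 and 44 peaks).

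The longest stretch without a peak in any of the 16 animals was 1004988 bp on chromosome 13 (chr13:170986399-171991386, in segment 8). On chromosome 15 it was 673036 bp (chr15:104631194-105304229), on chromosome 14 634886 bp (chr14:112249615-112884500) and on chromosome 18 598910 bp (chr18:38709297-39308206). Chromosomes 16 and 17 had shorter ones of 421699 bp (chr16:1759538-2181236, in the first segment) and 386020 bp (chr17:26517223-26903242). On none of the 6 chromosomes did the longest stretch lie in the sparsest segment. Stretches of at least 100 kb without a peak numbered 179 on chromosome 13, 106 on chromosome 14, 178 on chromosome 15, 74 on chromosome 16, 50 on chromosome 17 and 27 on chromosome 18. Whether the reads could be placed uniquely in these stretches, or whether the assembly has gaps there, was not tested.

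Peaks at the telomere end were also larger. The median number of tags per peak in the last segment was 42 in TH, 39 in TL, 46 in YH and 47 in YL. In the first segment it was 23, 22, 26 and 27, and over all of chromosomes 13 to 18 it was 24, 23, 26 and 27. The median length was 1295, 1234, 1376 and 1383 bp in the last segment and 921, 874, 952 and 969.5 bp in the first. Fold enrichment went the other way: its median was 6.93, 6.45, 6.05 and 6.27 in the last segment and 8.68, 8.12, 7.55 and 7.77 over the 6 chromosomes. On chromosomes 1 to 12 both ends had high medians, with 41, 38, 44 and 46 tags in the first segment and 40, 37, 43 and 44 in the last. In the YH blocks, the median over chromosomes 13 to 18 was 26.2 ± 1.89 tags (SD, n = 4), below the 29.8 ± 2.22 of chromosomes 1 to 12 in 4 of 4 blocks (exact sign-flip p = 0.125, the smallest possible).

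On chromosome 18 the first segment shared the high tags of the last, with medians of 52, 46, 57 and 57 tags against 56.5, 50, 62 and 64. On chromosomes 15 and 17 the first segment had medians of 17 to 20 tags over the 4 lists, and the last 35 to 52.

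Recurrence was counted as the number of peaks of a list over a base, which stands for the number of its animals that had a peak at that position. In TH, 46.7% of the covered bases lay under at least 2 peaks; in TL it was 43.8%, in YH 49.7% and in YL 50.9%. All 4 animals had a peak over 5.40% of the covered bases in TH, 8.99% in TL, 12.3% in YH and 11.6% in YL. TH thus had the lowest share under 4 peaks although TL had fewer peaks, while its share under exactly 3 peaks (15.5%) was above those of TL (12.5%) and YH (14.6%). The same was seen on chromosomes 1 to 12, where 5.86, 9.96, 13.5 and 12.6% of the covered bases lay under 4 peaks. In the last segment of chromosomes 13 to 18 the share under 4 peaks was higher in each list, at 6.96% in TH, 12.7% in TL, 16.5% in YH and 14.2% in YL.

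**Figure D4:**
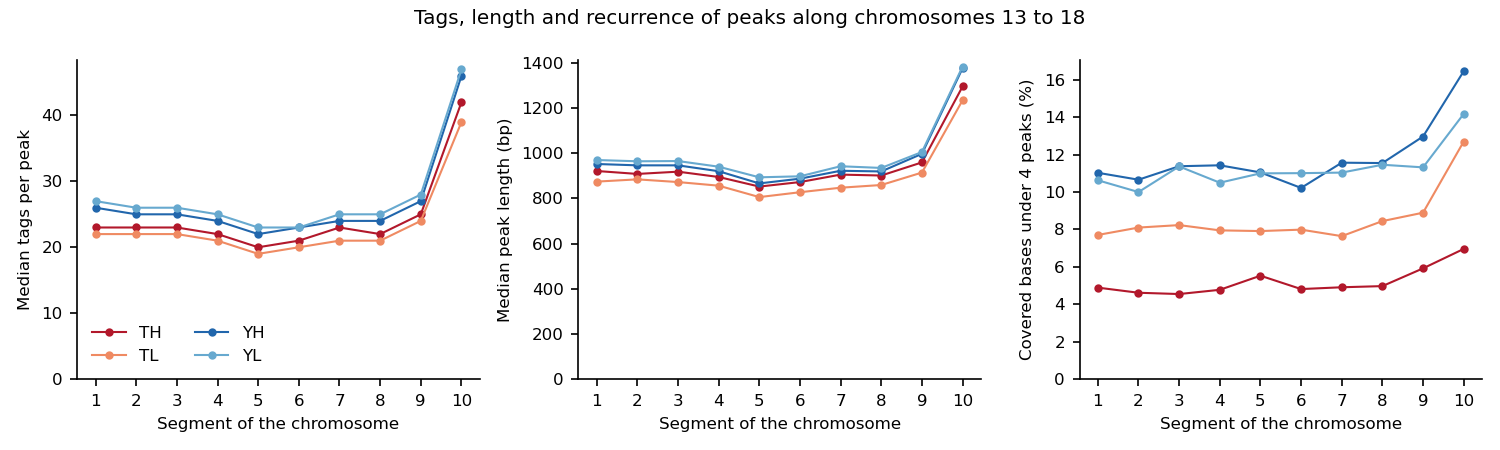
Median tags per peak (left), median peak length in bp (middle) and the percentage of covered bases that lie under 4 peaks of the same list (right) in 10 equal segments of chromosomes 13 to 18 (horizontal axes, segment 1 next to the centromere), 1 line per list. All 3 measures are highest in the last segment of each list (39 to 47 tags, 1234 to 1383 bp and 6.96 to 16.5%), and TH is the lowest line in the right panel.

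Taking the 4 lists as one set, peaks covered 84957604 bp, or 11.4% of the length of chromosomes 13 to 18. Of these bases, 39.5% were covered in 1 list, 21.4% in 2, 16.5% in 3 and 22.7% in all 4, close to the 37.4, 21.2, 16.6 and 24.7% of chromosomes 1 to 12. Bases covered in a single list belonged to YL most often (13.1% of the union), followed by TH (10.7%), YH (8.03%) and TL (7.58%), the same order as on chromosomes 1 to 12 (12.5, 10.1, 7.69 and 7.15%). A peak of only 1 of the 16 animals covered 34.4% of the union, and peaks of all 16 animals covered 918657 bp (1.08%; 1.28% on chromosomes 1 to 12).

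The telomere end was richer in bases shared by the lists. There, the union covered 20.9% of the sequence, 28.0% of it was covered in all 4 lists and 1.99% under 16 peaks, compared with 9.98, 21.1 and 0.703% in the first segment. Each list also covered more of the last segment (13.1, 10.6, 12.2 and 14.1% in TH, TL, YH and YL) than of the first (5.49, 4.65, 5.33 and 6.31%). The part of this coverage in the sharing was not tested. Both ends of chromosomes 1 to 12 had values like those of the telomere end, with 28.7 and 28.6% of the union covered in all 4 lists and 1.86 and 1.71% under 16 peaks in the first and last segments. The bases under 16 peaks formed 1050 regions, of which 296 (28.2%) lay in the last segment and 67 in the first. The longest of these regions was in the last segment on 5 of 6 chromosomes: chr13:207315388-207318053 (2666 bp), chr14:152326939-152329129 (2191 bp), chr15:153306397-153309404 (3008 bp), chr17:69673732-69678382 (4651 bp) and chr18:58387976-58390854 (2879 bp). The exception was chr16:36780758-36785665 (4908 bp), in segment 5 of chromosome 16.

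That region also held the peaks with the most tags. The peaks with the highest tags on each chromosome were chosen after their values were seen, and chr16:36780412-36788066 carried 1823 to 2202 tags per peak in TH, 2219 to 2503 in TL, 2185 to 3065 in YH and 2142 to 3214 in YL, with peaks of 4 of 4 animals in each group. The peak with the most tags on chromosome 13 (chr13:87550778-87554003) was overlapped by 4 peaks of each list, with 109 to 679 tags in TH, 625 to 952 in TL, 841 to 965 in YH and 702 to 1365 in YL. The peaks with the most tags on chromosome 14 (chr14:52393812-52397925, up to 377 tags) and chromosome 15 (chr15:155535668-155540287, up to 635 tags) were also overlapped by 4 peaks of each list. The fold enrichment of the top peaks of chromosomes 13, 14, 15 and 16 was 10.3 (YL), 4.99 (YL), 7.42 (YH) and 4.19 (YL). The medians of these chromosomes in the same lists were 8.35, 7.49, 8.05 and 7.84, so many tags did not always mean high enrichment.

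On the remaining chromosomes the peak with the most tags was not shared by all groups. On chromosome 17, chr17:69490654-69499074 (8421 bp, in the last segment) was overlapped by 1 peak in TH with 1560 tags and 3 peaks in TL with 720 to 971 tags, and by none in YH or YL. On chromosome 18, chr18:60688605-60695333 was overlapped by 1 peak in TH (465 tags) and 1 in YL (526 tags). The fold enrichment of these top peaks was 6.74 on chromosome 17 (TH) and 2.7 on chromosome 18 (YL), against medians of 7.91 and 6.85 there. Tags per peak are not scaled to the reads of an animal.

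Overlap between the groups was measured as the bases covered in both lists divided by those covered in either (Jaccard index). The breeds had an index of 0.439 at high elevation (TH vs. YH) and 0.427 at low elevation (TL vs. YL). The elevations had an index of 0.434 in Tibetan pigs (TH vs. TL) and 0.4995 in Yorkshire pigs (YH vs. YL). The 2 remaining pairs gave 0.452 (TH and YL) and 0.442 (TL and YH). YH and YL had the highest overlap on each of the 6 chromosomes, from 0.477 on chromosome 13 to 0.549 on chromosome 18. In the last segment the 4 study comparisons gave 0.499, 0.476, 0.492 and 0.548, compared with 0.430, 0.407, 0.409 and 0.493 in the first. On chromosomes 1 to 12 they were 0.461, 0.447, 0.457 and 0.519. Since this index was computed on whole lists, the differences between pairs have no test. The part of higher coverage in the higher index of the last segment was not tested either.

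Most peaks had a counterpart in another group. At least 1 bp was shared with a peak of any other list by 89.1% of the TH peaks, 90.5% of the TL peaks, 92.9% of the YH peaks and 90.5% of the YL peaks, and with peaks of all 3 other lists by 57.7, 62.3, 62.0 and 56.3%. Peaks with counterparts in all 3 other lists had medians of 28, 27, 31 and 32 tags, against 20, 18, 21 and 22 for the remaining peaks. Peaks on chromosomes 1 to 12 had slightly higher shares, with 90.5, 91.5, 93.6 and 91.6% overlapping any other list and 60.6, 65.4, 64.8 and 59.3% all 3, and the same order of tags (32, 30, 35 and 37 against 22, 19, 22 and 24).

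To compare the groups site by site, the animals with a peak over the middle base of each 500 bp window were counted. A window was called when 4 animals of one group and 0 of the other had a peak (two-sided Fisher's exact test, p = 0.0286, the smallest that 4 animals against 4 can give). After Benjamini-Hochberg adjustment over all windows with a peak in either group, the smallest adjusted p of the exact test was 1 in each of the 4 comparisons, so 0 windows passed, and the counts below are unadjusted. With 0.0286 as the smallest p, the adjustment could be passed only if most windows were called, so this outcome says nothing about single windows. Adjacent windows can lie under the same peaks and are not independent. Wilson intervals for shares of windows take them as independent and are therefore too narrow.

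In the breed comparison at high elevation (TH vs. YH), 644 of 129930 windows on chromosomes 13 to 18 were called (0.496%), 143 with peaks in TH and 501 with peaks in YH. The background over all sequences was 0.0984% for TH and 0.379% for YH, and chromosomes 13 to 18 had 0.110% (95% Wilson interval 0.0934 to 0.130%) and 0.386% (0.353 to 0.421%). TH made up 22.2% of the calls. With at least 3 animals against 0, TH made up 40.0% of 4263 windows (1705 in TH, 2558 in YH), and with peaks of at least 20 tags 13.1% of 505 windows (66 in TH, 439 in YH).

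The breed comparison at low elevation (TL vs. YL) had the most calls, 972 of 133764 windows (0.727%), with 123 in TL and 849 in YL. The background was 0.0849% for TL and 0.667% for YL, and chromosomes 13 to 18 had 0.0920% (0.0771 to 0.110%) and 0.635% (0.593 to 0.679%). TL made up 12.7% of the calls. With at least 3 animals against 0 it made up 16.1% of 5446 windows, and with peaks of at least 20 tags 9.72% of 792 windows. Among the chromosomes, the share called for YL was lowest on chromosome 17 (0.396%, 0.311 to 0.505%) and highest on chromosome 18 (0.795%, 0.673 to 0.939%). These chromosomes were picked by their values, and the order was not repeated at high elevation. There, the share called for YH was 0.390% on chromosome 17 and 0.315% on chromosome 18.

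Between elevations in Tibetan pigs (TH vs. TL), 300 of 123617 windows were called (0.243%), 136 in TH and 164 in TL. The background was 0.103% for TH and 0.114% for TL, and chromosomes 13 to 18 had 0.110% (0.0930 to 0.130%) and 0.133% (0.114 to 0.155%). The direction of this split depended on the rule: TH made up 45.3% of the windows with 4 animals against 0 and 62.4% of those with at least 3 against 0 (1968 in TH, 1184 in TL), and with peaks of at least 20 tags it made up 39.1% (70 in TH, 109 in TL). The share of covered bases under 4 peaks was lower in TH than in TL, as given above, and its part in this change was not tested.

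Between elevations in Yorkshire pigs (YH vs. YL), 352 of 133906 windows were called (0.263%), 75 in YH and 277 in YL. The background was 0.0624% for YH and 0.194% for YL, and chromosomes 13 to 18 had 0.0560% (0.0447 to 0.0702%) and 0.207% (0.184 to 0.233%). YH made up 21.3% of the calls. With at least 3 animals against 0 it made up 27.1% of 2888 windows, and with peaks of at least 20 tags 22.7% of 247 windows. In each of the 8 directions the share on chromosomes 13 to 18 lay near the background of all sequences. The larger number of calls was in the group with more peaks in the list in 3 of the 4 comparisons, and in TL, the group with fewer, in TH vs. TL.

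**Figure D5:**
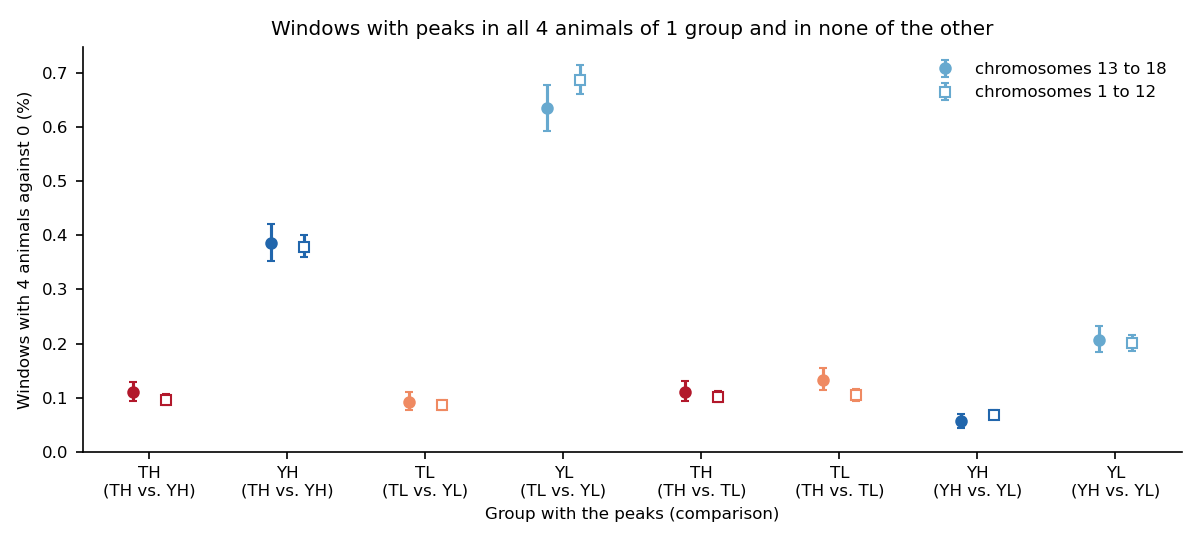
Percentage of 500 bp windows (vertical axis) with peaks in 4 animals of one group and 0 of the other, for both directions of the 4 comparisons (horizontal axis; the group with the peaks is named first). Filled circles are chromosomes 13 to 18 and open squares chromosomes 1 to 12, with 95% Wilson intervals that cover counting error only. YL against TL is the highest pair (0.635% on chromosomes 13 to 18), and circles and squares lie close together in each direction.

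The last segment, which held the most peaks, had a larger share of called windows than chromosomes 13 to 18 as a whole in 4 of the 8 directions and a smaller share in the other 4. In TH vs. YH, the share called for TH was 0.0395% there (10 of 25309 windows) and for YH 0.340% (86 windows). In TL vs. YL it was 0.104% for TL and 0.657% for YL, and in TH vs. TL 0.0966% for TH and 0.0840% for TL. In YH vs. YL it was 0.0787% for YH and 0.256% for YL. The first segment had 0.0707 and 0.309% in TH vs. YH, 0.0689 and 0.681% in TL vs. YL, 0.0838 and 0.0932% in TH vs. TL, and 0.0343 and 0.163% in YH vs. YL (in the same order of groups), where the lowest share rests on 4 windows.

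The longest run of adjacent called windows was found in the last segment in 6 of the 8 directions. That segment held 25309 of the 129930 windows compared in TH vs. YH. Its peaks were also longer, with medians of 1234 to 1383 bp against 874 to 969.5 bp in the first segment. The part of either in the place of the longest runs was not tested. For TH over TL the longest run was chr18:60913001-60916000, where 4 TH peaks had 66 to 119 tags, TL had none, and YH and YL had 2 peaks each. For TL over TH it was chr13:215930001-215932500, with 4 TL peaks of 78 to 101 tags, none in TH, 2 in YH and 3 in YL. For YL over YH it was chr15:153482001-153485000, with 4 YL peaks of 81 to 155 tags, none in YH, 2 in TH and 1 in TL. For YH over YL it was chr14:151097001-151099000, where 4 YH peaks had 64 to 78 tags and 3 TH peaks 57 to 63 tags, with none in TL or YL. This run thus held 7 highland peaks and 0 lowland peaks, although only the Yorkshire comparison was called.

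Of the breed runs, the YH run over TH was chr13:206142501-206144500, with 4 YH peaks of 73 to 86 tags, 3 YL peaks of 59 to 89 tags, and none in TH or TL. The TH run over YH was chr14:60926001-60927500 (segment 4), with 4 TH peaks of 28 to 56 tags, 2 TL and 3 YL peaks and no YH peak. The YL run over TL was chr14:147001501-147004000, with 4 YL peaks of 95 to 160 tags, 3 YH peaks of 98 to 122 tags, 1 TH peak of 108 tags and none in TL. The TL run over YL was chr13:34535501-34538000 (segment 2), which 5 TL peaks of 38 to 175 tags and 3 YL peaks of 68 to 102 tags touched, the latter not over the middle base of any of its windows, beside 3 TH peaks of 91 to 188 tags and 3 YH peaks of 70 to 113 tags.

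The breed comparisons at the 2 elevations share no animals, and 33 of the 170024 windows with a peak in any list were called in both (0.0194%, 95% Wilson interval 0.0138 to 0.0273%). On chromosomes 1 to 12 there were 64 of 450111 (0.0142%, 0.0111 to 0.0181%), and over all sequences 104 of 674600 (0.0154%). In 30 of the 33 (0.0176% of windows, against 0.0145% over all sequences), all 8 Yorkshire animals and 0 of the 8 Tibetan animals had a peak over the middle base; in 2, all 8 Tibetan and 0 Yorkshire animals did; and in 1 (chr16:13248001-13248500) the direction was opposite, with peaks in 4 TH and 4 YL animals and in 0 YH and 0 TL animals. That last window was also the only one called in both elevation comparisons. The 30 Yorkshire windows formed 23 regions, with 6 on chromosome 13, 8 on chromosome 14, 4 on chromosome 15, 2 on chromosome 16, 2 on chromosome 17 and 1 on chromosome 18, and 5 of the 23 in a last segment. For scale, 25309 of the 129930 windows compared in TH vs. YH lay in a last segment. Chromosomes 13 to 18 held 30045, 30719, 21275, 14922, 16160 and 16809 of those windows, so these counts of regions are not read as a preference for a place. In 8 of the regions a Tibetan peak touched the edge of the region.

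Among these regions, some were chosen for description after their values were seen. The longest was chr13:207969001-207970500, with 100 to 121 tags per peak in YH, 50 to 140 in YL and no Tibetan peak. At chr18:47085001-47085500 the peaks had 40 to 129 tags in YH and 46 to 91 in YL, and at chr15:52255001-52255500 they had 42 to 75 and 47 to 79, again without a Tibetan peak. At chr16:82468001-82469000 they had 73 to 106 tags in YH and 72 to 99 in YL, beside 1 TH peak of 57 tags at the edge. Others had few tags: at chr17:27769001-27769500 the YH peaks had 13 to 15 tags and the YL peaks 16 to 26. Of the Tibetan windows, chr13:85597001-85597500 had 35 to 43 tags in TH and 24 to 47 in TL, with 2 YH and 1 YL peaks of 20 to 26 tags at its edge, and chr13:191747501-191748000 had 13 to 22 and 12 to 17 tags with no Yorkshire peak.

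Lastly, 13 windows of 12 genes on chromosomes 13 and 14 were examined, at the positions and in the elements (promoter, coding sequence, 5'-UTR or intron) that the study's own table of differential windows gives, by the peaks that overlapped them by at least 1 bp. The study chose them on these animals, so they are not independent of the data. The study found them with the MEDIPS package by fold change and P value, not by the presence of peaks. The counts here are another measure and do not test the study's calls. Exact p values take each peak as 1 animal, although 2 peaks of an animal can touch the same window. None was called, and no exact p was below 0.143. Over all sequences only 0.0624 to 0.667% of windows were called in a direction, so no call among 13 windows is not a result about these genes. The largest contrasts were at ICA and APP. ICA encodes an inhibitor of carbonic anhydrase. Its promoter window (chr13:82337501-82338000) was overlapped by 3 TH peaks (23 to 75 tags) and 2 YH peaks (20 and 25 tags). No TL or YL peak overlapped it, so only highland peaks did (exact p = 0.143 in TH vs. TL and 0.429 in YH vs. YL). A coding window of APP (chr13:199306001-199306500), the amyloid precursor protein gene, was overlapped by 3 TH peaks of 31 to 45 tags. It also had 2 TL peaks (22 and 23 tags), 1 YL peak (29 tags) and no YH peak (exact p = 0.143 in TH vs. YH).

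ERG encodes an ETS transcription factor of endothelial cells. Its intronic window (chr13:212121501-212122000) was overlapped by 1 YH peak (111 tags), 2 YL peaks (82 and 120 tags) and no Tibetan peak (exact p = 0.429 in TL vs. YL). The 5'-UTR window of CYP2C42 (chr14:116311501-116312000), a cytochrome P450 gene, had 2 YH peaks only (14 and 17 tags, exact p = 0.429). The remaining windows had at most 1 peak of a group. The promoter of PPARG (chr13:75573501-75574000), a nuclear receptor of lipid metabolism, had 1 TL and 1 YL peak of 13 and 20 tags, and a coding window of USP19 (chr13:34960501-34961000), a deubiquitinating enzyme, had 1 TH and 1 YH peak of 67 and 51 tags. The promoter of EPHX2 (chr14:12475001-12475500), which encodes soluble epoxide hydrolase, had 1 TH peak of 28 tags. The promoter of O3FAR1 (chr14:114738501-114739000), a fatty acid receptor, and an intron of FGFR2 (chr14:142560001-142560500), a fibroblast growth factor receptor, had 1 YH peak each, of 27 and 55 tags. No peak overlapped the second coding window of USP19 (chr13:34965001-34965500), or the windows at DJB11 (chr13:133798001-133798500), ADPRH (chr13:150015001-150015500) or UROS (chr14:146765001-146765500), the gene of a heme biosynthesis enzyme.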

How the data were processed

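MeDIP-seq libraries were made from the hearts of 16 pigs. The authors trimmed the reads (FASTX, version 0.0.13), mapped them to Sscrofa10.2 (Bowtie, version 0.12.8) and called peaks (MACS, version 1.4). They deposited 1 peak list per group. The tags of a peak, a count, are not normalized in the deposited lists. Fold enrichment is the ratio the authors' peak caller reported. Positions are in bp of Sscrofa10.2. The TH list lacks a separate end in 100907 rows, where it was read from the joint start and end field.

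Peaks on chromosomes 13 to 18 were counted in 10 equal segments of each chromosome by their midpoints, and 95% Wilson intervals, which cover counting error only, were given for shares. Peaks over the middle base of 500 bp windows were compared by two-sided Fisher's exact test with Benjamini-Hochberg adjustment over all windows; the count was tested on simulated data. No column names an animal, so the intended permutation test over animals was not run. The use of the 4 blocks of the YH list was added after seeing the data. The lists give no read depth, and no genome sequence or annotation of Sscrofa10.2 was used here. The regions and lists were chosen with earlier results of these data known. Named regions were, per chromosome, the densest and sparsest segment, the densest 100 kb bin and the longest stretch without a peak, and the longest run of called windows per comparison and direction. Named genes were those with a promoter, 5'-UTR or coding window on these chromosomes in the used part of the study's table of differential windows, plus ERG, FGFR2, EPHX2 and ICA. Calculations used Python 3.11.15, NumPy 2.4.6 and pandas 2.3.3.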

Additional observations from a re-analysis of the deposited data

Results flagged for a closer look

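Among the 17 sets of values of the 4 YH blocks that were examined for a block far from the others, 1 stood out. On chromosome 13 the third block of rows had 19.1 peaks per Mb, against 22.5, 22.5 and 23.0 in the other three. Chance marks about 1 in 20 such sets. This block had the fewest peaks of the 4 (63138), and it was also the lowest on the other 5 chromosomes.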

How the results depend on the processing

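Of the ratio of last to first segment, none of the settings gave a value below 1. It was 2.15, 2.16, 2.04 and 1.98 in TH, TL, YH and YL with ends of 5%, and 1.36, 1.36, 1.34 and 1.31 with ends of 20%. It was 2.51, 2.54, 2.26 and 2.10 for peaks of at least 20 tags, 1.65, 1.57, 1.57 and 1.52 for merged regions and 2.39, 2.28, 2.29 and 2.23 for covered bases. Leaving out a chromosome kept it between 1.53 and 1.97. The share of autosomal peaks was 26.4, 26.1, 26.8 and 27.1% with at least 20 tags, 28.7, 28.8, 28.7 and 28.9% for merged regions, 26.8, 26.8, 26.8 and 26.9% for covered bases, and 26.1, 26.1, 25.9 and 26.1% of all rows. The mean of the YH blocks (added after seeing the data) was within the interval of the list for both. Recurrence was 46.8, 43.8, 50.1 and 50.7% with at least 20 tags, and 51.6, 47.4, 52.6 and 55.2% of merged regions held at least 2 peaks. The overlap of TH and YH, TL and YL, TH and TL, and YH and YL was 0.439, 0.416, 0.435 and 0.499 with at least 20 tags, and 0.419, 0.393, 0.413 and 0.493 for bases under at least 2 peaks. With equal numbers of peaks it was 0.422 (TL and YL), 0.434 (TH and TL) and 0.499 (YH and YL). Windows with at least 3 animals against 0 numbered 4263, 5446, 3152 and 2888. Overlap with any base of the window gave 474 in TH vs. TL and 536 in YH vs. YL, and at least 20 tags gave 179 in TH vs. TL, and the causes of these changes were not tested.

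No paired analysis was possible because no column of the lists names an animal, and leaving out each animal of TH, TL and YL in turn was not run for the same reason. Leaving out each YH block in turn (added after seeing the data) gave shares of 28.1 to 28.4% and ratios of 1.74 to 1.82 in YH. With 1 list per group, only YH gave a spread between animals, and that spread rests on reading its 4 blocks of rows as animals. The part of read depth in the differences in peak number between groups was not tested.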
